A study of Mus musculus with 12 samples.

Results

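The genes described here set how much glucose the liver releases and how it answers insulin. They are the glucose output enzymes G6pc, Pck1 and Fbp1, the coactivator Ppargc1a, the insulin pathway genes Insr, Irs1, Irs2 and Foxo1, and Igfbp1, which encodes a secreted binding protein of insulin-like growth factors. These 9 genes were taken by name, with earlier results of these data known. The platform annotation pairs 15780 genes with a probe set, 8 of the 9 among them, and Irs1 is not analysed here. Of the 8, G6pc, Pck1, Fbp1, Igfbp1 and Foxo1 passed the filter on dim probe sets (a log2 value of at least 4 on at least 3 arrays), so 5 were tested among 6683 probe sets. Ppargc1a, Irs2 and Insr stayed below it.

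Livers of 12 mice were measured on Affymetrix arrays, 1 per animal, in 4 groups of 3. Mice of the c-MetDhepa genotype lack Met, the receptor of hepatocyte growth factor (HGF), in hepatocytes, through a Cre transgene driven by the albumin promoter (Alb-Cre) or by the albumin/AFP promoter and enhancer (Alfp-Cre). Alfp-Cre is active from embryonal development and Alb-Cre from after birth, and which driver each mouse carried is not stated. Their controls were c-MetloxP/loxP mice, so both genotypes derive from loxP-flanked Met alleles. Whether liver cells other than hepatocytes kept Met in the knockouts was not tested. The Met knockout livers came from mice given 2 µg recombinant mouse HGF into the peritoneum 2 h before sampling, or from mice labelled unstimulated, and so did the control livers. The protocol also mentions NaCl, and does not settle whether unstimulated mice were injected. Sex, age and feeding state are not stated in the labels. The question is which liver transcripts answer HGF and whether they need Met in hepatocytes.

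Glucose-6-phosphatase, encoded by G6pc, carries out the last step of gluconeogenesis and of glycogen breakdown, and phosphoenolpyruvate carboxykinase (Pck1) and fructose-1,6-bisphosphatase (Fbp1) act upstream of it. Insulin binds its receptor (Insr), which signals through the docking proteins IRS1 and IRS2 to the kinase AKT. AKT phosphorylates the transcription factor FOXO1, which then leaves the nucleus. FOXO1 drives G6pc, Pck1, Igfbp1 and Irs2 in fasted liver, together with the coactivator PGC-1alpha (Ppargc1a), while cyclic AMP signalling from glucagon acts through CREB. Igfbp1 also answers stress signals, and G6pc and Igfbp1 are textbook insulin-repressed genes.

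Promoter sequences are shown for the 3 genes with the widest spread between arrays, G6pc, Igfbp1 and Irs2, and for Pck1, a fellow glucose output gene with a narrower spread. The reference table of RefSeq promoters (GRCm38.p6) held 8 of the 9 genes, each as 250 bases before and 50 after the annotated start. Capitals mark CAAAACA, the core of the insulin response element, and TGACG, the core of the cyclic AMP response element, each on either strand (TGTTTTG and CGTCA where the complement is read). The windows lie at chr11:101367466-101367765 (plus strand), chr11:7197537-7197836 (plus), chr8:11008880-11009179 (minus) and chr2:173152823-173153122 (plus), and are written 5′ to 3′ along the gene.
G6pc: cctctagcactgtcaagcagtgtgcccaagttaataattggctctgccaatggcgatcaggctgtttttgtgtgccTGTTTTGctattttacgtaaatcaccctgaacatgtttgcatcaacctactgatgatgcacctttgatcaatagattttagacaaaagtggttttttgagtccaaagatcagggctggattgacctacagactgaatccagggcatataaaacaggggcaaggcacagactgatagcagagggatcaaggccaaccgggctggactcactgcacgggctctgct
Igfbp1: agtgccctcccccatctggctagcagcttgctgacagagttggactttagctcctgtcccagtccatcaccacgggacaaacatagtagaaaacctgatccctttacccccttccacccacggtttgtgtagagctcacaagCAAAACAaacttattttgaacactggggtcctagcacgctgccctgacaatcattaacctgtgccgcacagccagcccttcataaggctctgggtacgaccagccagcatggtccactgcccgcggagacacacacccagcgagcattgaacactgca
Irs2: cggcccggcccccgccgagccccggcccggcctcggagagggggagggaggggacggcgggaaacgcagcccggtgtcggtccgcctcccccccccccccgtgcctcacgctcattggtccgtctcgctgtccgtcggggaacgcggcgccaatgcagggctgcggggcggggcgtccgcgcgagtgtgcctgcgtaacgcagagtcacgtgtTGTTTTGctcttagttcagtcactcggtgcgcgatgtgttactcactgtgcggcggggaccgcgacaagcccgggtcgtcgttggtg
Pck1: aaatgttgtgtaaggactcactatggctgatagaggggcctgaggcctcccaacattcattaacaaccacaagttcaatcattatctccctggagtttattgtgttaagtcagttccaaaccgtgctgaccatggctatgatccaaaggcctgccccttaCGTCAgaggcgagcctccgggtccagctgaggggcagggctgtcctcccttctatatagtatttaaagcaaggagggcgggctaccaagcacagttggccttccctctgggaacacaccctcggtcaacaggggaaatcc
G6pc, Igfbp1 and Irs2 each held 1 CAAAACA, at positions -174 to -168, -108 to -102 and -37 to -31 from the start, and Irs1 held 2. That heptamer was present in 6.28% of all 32851 promoter windows of this length. Pck1 held TGACG at -90 to -86, as Ppargc1a did at -49 to -45 and Irs1 at -118 to -114, against 20.8% of all windows. The forkhead core TGTTTAC, present in 3.65% of windows, was in none of the 8, and Fbp1 and Foxo1 held none of the 3 motifs. These matches describe letters in a window and were not tested as binding sites.

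Some knockout arrays stood apart from others of their group, which bears on every knockout value below. On a response index over the 6678 tested probe sets other than these genes, where the mean of controls without HGF is 0 and that of controls with HGF is 1, Met knockout livers with HGF lay at 0.32, 0.01 and 0.94 (replicates 1 to 3). Met knockout livers without HGF lay at 0.12, 0.98 and 0.04, while the 3 controls with HGF spanned 0.88 to 1.06 and the 3 without -0.06 to 0.07. Replicate 2 without HGF, at 0.98, thus went against its label. Replicate 2 with HGF, at 0.01, lay at the level of untreated controls, and replicate 1 with HGF, at 0.32, was also low. Replicate 3 with HGF, at 0.94, lay within the range of treated controls. The knockout livers given HGF thus did not share 1 level, and none of these levels is taken as the expected one. Whether the labels of the replicate 2 arrays were exchanged was not tested. An exchange would change the means of both knockout groups. For G6pc and Igfbp1, the HGF effect in knockouts and the genotype effect in each condition are therefore also given without both replicate 2 arrays. Other knockout results include these arrays unless stated. Leaving both out keeps replicate 3 with HGF. Control arrays are numbered 1 to 6 and knockout arrays 7 to 12, so genotype and array order cannot be told apart. The Met probe set averaged 6.77 ± 0.57 in Met knockout livers with HGF and 6.98 ± 0.26 in those without, against 6.80 ± 0.21 in control livers with HGF and 6.74 ± 0.11 in those without (SD, n = 3, log2 scale). Where its probes lie relative to the deleted part is not known, so it checks no label. Hepatocyte markers (9 of 10 with a probe set, all 9 tested) summed to log2 values of 16.73 to 16.82 on all arrays, and of cholangiocyte, adipocyte and pancreatic markers with a probe set 0 of 5, 1 of 4 and 1 of 4 passed the filter. In whole liver, fewer cells of a type and less RNA per cell cannot be told apart.

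G6pc and Igfbp1 had the widest ranges of the 5 tested genes, and their HGF differences in controls had opposite signs. In control livers, the glucose-6-phosphatase transcript was lower with HGF and the IGF binding protein transcript higher, by 12.5-fold and 11.6-fold on average. Irs2, dim on most arrays, was higher with HGF in controls. The ranges of Pck1, Fbp1 and Foxo1 were smaller. Over the 12 arrays, log2 values of G6pc spanned 5.28, a wider range than that of 99.2% of tested genes, and those of Igfbp1 4.68, wider than 98.9%. Pck1 spanned 1.24, wider than 75.5% of tested genes. Foxo1 spanned 0.77 and Fbp1 0.37, against a median of 0.81 over all tested genes.

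**Figure D1:**
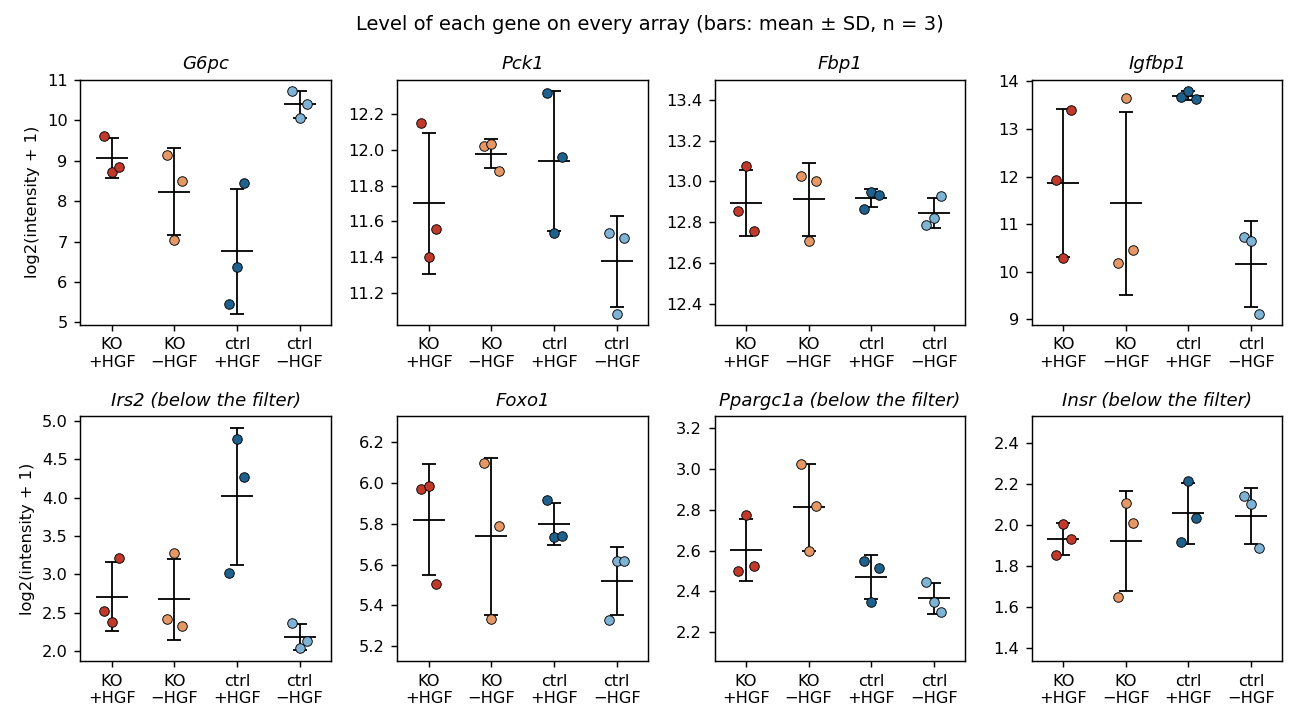
Log2(intensity + 1) of the 8 genes with a probe set in the 4 groups (KO, Met knockout; ctrl, control; + and − HGF). Points are arrays and bars the mean ± SD of 3. The mean of G6pc is lowest and that of Igfbp1 highest in controls with HGF, while the knockout groups spread widely for Igfbp1, from 10.19 to 13.65 without HGF.

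The limma test over all 12 arrays passed none of the 5 tested genes in any contrast at an adjusted p under 0.05 (Benjamini-Hochberg over all tested probe sets). For the HGF effect in control livers, 0 of 5 passed, where 0.404% of all tested probe sets did, and 3 of 5 had an unadjusted p under 0.05, against 19.6% of all. For the HGF effect in knockout livers, 0 of 5 passed, against 0% of all, with 0 at an unadjusted p under 0.05 (1.9% of all). The knockout effect passed 0 of 5 without HGF (0.0599% of all), 0 of 5 with HGF (0.015%) and 0 of 5 when averaged over both conditions (0.015%), with 2, 1 and 0 of 5 at an unadjusted p under 0.05, against 10.8%, 9.58% and 9.38% of all. The interaction, the HGF effect in knockouts minus that in controls, passed 0 of 5 (0% of all), with 3 at an unadjusted p under 0.05 (10.8% of all). Values below are therefore given as measured, with limma standard errors, and words for direction describe the means.

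Among the glucose output enzymes, G6pc (Entrez Gene 14377) had log2 values of 5.44, 6.37 and 8.45 in controls with HGF, against 10.73, 10.06 and 10.42 in controls without HGF. The groups did not overlap, which held in the downward direction for 23.7% of all tested probe sets. The difference was -3.65 (SE 0.72, 95% interval -5.24 to -2.06, limma adjusted p = 0.0643), a 12.5-fold lower mean with HGF. Replicate 3 with HGF lay nearest to the untreated arrays, and the means were 6.76 ± 1.54 with HGF and 10.40 ± 0.33 without HGF (SD, n = 3 each).

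The direction of this difference held across all settings while its call did not. With the 2 control groups alone, whose own spread then sets the error, limma called G6pc at an adjusted p = 0.0215, in a fit that called 12% of all tested probe sets. On the log2(intensity + 16) scale it was -3.42 (limma adjusted p = 0.0493, with 0.613% of all called), and with arrays weighted by their agreement with the fit -2.90 (limma adjusted p = 0.00598, with 20.2% called). Of the 6 knockout arrays, which only enter the error here, leaving out 1 gave a call in 2 cases and none in the other 4 (limma adjusted p = 0.0543 to 0.0810). In the cases called, the limma adjusted p was 0.0203 without knockout replicate 2 without HGF (4.74% of all called) and 0.0492 without knockout replicate 3 with HGF (1.81%). It was 0.0134 without both replicate 2 knockout arrays (8.16%). With any 1 control array left out it was not called. The difference was -2.99 without replicate 1 of controls with HGF, and -4.50 without replicate 3 of the same group.

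None of the 5 tested genes separated knockout livers with HGF from those without, where 3.8% of all tested probe sets did. In Met knockout livers, G6pc was at 9.63, 8.71 and 8.85 with HGF, against 9.16, 7.04 and 8.49 without HGF. All 6 of these arrays lay below all 3 controls without HGF, and 5 of the 6 lay above all 3 controls with HGF. The exception was replicate 2 without HGF, at 7.04. The HGF effect in knockouts was 0.83 (SE 0.72, limma adjusted p = 1.00 when rounded), and 0.41 without both replicate 2 arrays (limma adjusted p = 0.800).

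The genotype comparison of G6pc ran in opposite directions in the 2 conditions. Without HGF, the Met knockout mean was 8.23 against 10.40 in controls, a difference of -2.17 (SE 0.72, limma adjusted p = 0.292), and -1.58 without both replicate 2 arrays (limma adjusted p = 0.284). With HGF, it was 9.06 in knockouts against 6.76 in controls, a difference of 2.31 (SE 0.72, limma adjusted p = 0.484), and 2.48 without knockout replicate 2 (limma adjusted p = 0.409, both replicate 2 arrays left out). Neither pair of groups overlapped, where 18.7% of all tested probe sets did not overlap without HGF and 14.9% with HGF. Averaged over both conditions, the knockout effect was 0.07 (SE 0.51, limma adjusted p = 0.974). The interaction was 4.48 (SE 1.01, 95% interval 2.23 to 6.73, limma adjusted p = 0.265). It was called with array weights, at 3.41 (limma adjusted p = 0.0485), in a fit that called 4.01% of all tested probe sets. The estimation of those weights stopped before full convergence, and no other setting called the interaction. Without both replicate 2 arrays, the lowest limma adjusted p for the interaction among the 5 tested genes was 0.160.

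Pck1 (Entrez Gene 18534), which makes phosphoenolpyruvate from oxaloacetate, did not share the pattern of G6pc. It had log2 values of 12.32, 11.54 and 11.96 in controls with HGF, against 11.54, 11.08 and 11.51 in controls without HGF. The groups met at their edges, with the lowest HGF array and the highest untreated array both at 11.54. The difference was 0.56 (SE 0.24, limma adjusted p = 0.225), of opposite sign to that of G6pc. Knockout livers were at 12.15, 11.40 and 11.55 with HGF, against 12.02, 12.03 and 11.88 without HGF, a difference of -0.28 (SE 0.24). Without HGF, the 3 knockout arrays lay above the 3 control arrays, by 0.60 on average (SE 0.24, limma adjusted p = 0.388), where 6.61% of all tested probe sets separated upward. With HGF the knockout minus control difference was -0.24 (limma adjusted p = 0.737). The interaction for Pck1 was -0.84 (SE 0.33, limma adjusted p = 0.415).

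Fbp1 (Entrez Gene 14121) had the narrowest range of the 3 enzymes. Its log2 values ran from 12.76 to 13.07 in Met knockout livers with HGF and from 12.71 to 13.03 in those without, against 12.87 to 12.95 in control livers with HGF and 12.79 to 12.93 in those without. All groups overlapped, and 7.30% of tested genes had a narrower range over the 12 arrays. The HGF effect in controls was 0.07 (SE 0.12, 95% interval -0.19 to 0.34), so a change as large as that of G6pc lies outside its interval. The HGF effect in knockouts was -0.02, the knockout effect -0.02 with HGF and 0.07 without HGF, and the interaction -0.09 (limma adjusted p = 0.888).

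**Figure D2:**
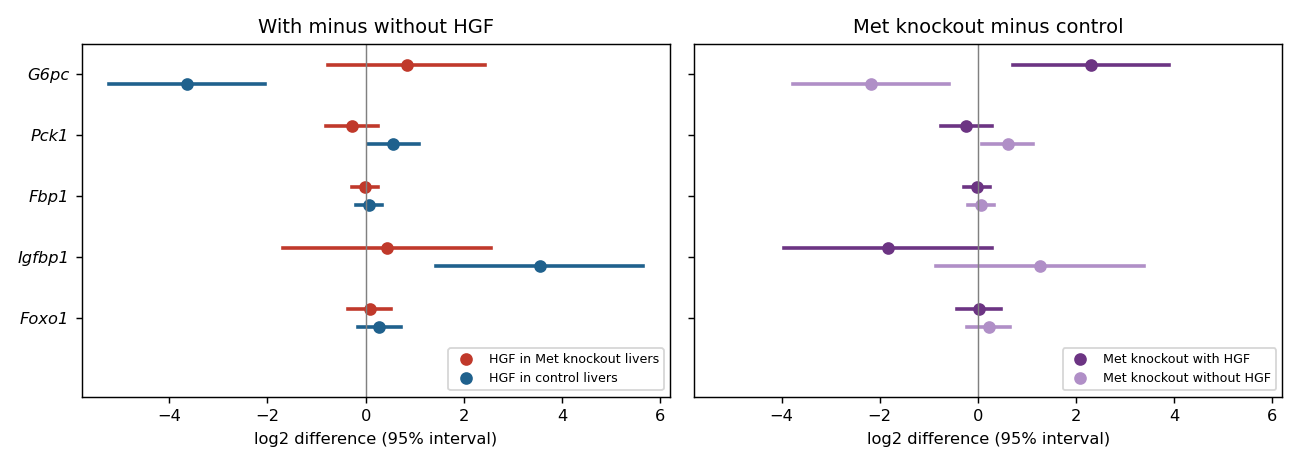
Log2 differences of the 5 tested genes with 95% limma intervals. Left, with minus without HGF in Met knockout (red) and control livers (blue); right, Met knockout minus control livers, with HGF (dark purple) and without HGF (light purple). G6pc and Igfbp1 lie on opposite sides of 0 in controls, at -3.65 and 3.54, and no difference passed the adjusted threshold over all 12 arrays.

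Of the regulators, Foxo1 (Entrez Gene 56458) showed little movement in its transcript. It had log2 values of 5.92, 5.74 and 5.74 in controls with HGF, against 5.33, 5.62 and 5.62 in controls without HGF. These groups did not overlap, but lay only 0.28 apart (SE 0.20, limma adjusted p = 0.464). Upward separation of this kind was seen in 14.1% of all tested probe sets, and in total 3 of the 5 tested genes separated in this contrast, against 37.7% of all. Knockout livers were at 5.97, 5.98 and 5.51 with HGF, against 6.10, 5.33 and 5.79 without HGF, and the lowest array of each group was one with an index near 1. The HGF effect in knockouts was 0.08, the knockout effect 0.02 with HGF and 0.22 without HGF, and the interaction -0.20 (limma adjusted p = 0.842). The array measures the transcript and not the phosphorylation by which insulin controls FOXO1.

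Ppargc1a (Entrez Gene 19017), the coactivator of fasting gluconeogenesis, stayed below the filter on all 12 arrays, at 2.30 to 3.02. Its values were 2.50, 2.78 and 2.53 in Met knockout livers with HGF and 3.02, 2.60 and 2.82 in those without. They were 2.55, 2.35 and 2.52 in control livers with HGF and 2.45, 2.35 and 2.30 in those without. Knockouts without HGF lay above their controls on every array, by 0.45 with all probe sets fitted (limma adjusted p = 0.283). Of all tested probe sets, which leave out Ppargc1a, 6.61% separated upward in this way. At such low signals the background correction sets much of the value, so the size of this gap is uncertain.

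Insr (Entrez Gene 16337), the insulin receptor gene, was below the filter on all 12 arrays, at 1.65 to 2.22 over the 12 arrays, with all groups overlapping. A difference in the receptor transcript was not detectable at this signal.

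Irs2 (Entrez Gene 384783), a docking protein gene that insulin represses in liver, reached a log2 value of 4 on only 2 of 12 arrays. Both were controls with HGF, whose values were 3.02, 4.76 and 4.27, against 2.37, 2.04 and 2.13 in controls without HGF. The groups did not overlap, which held in the upward direction for 14.1% of all tested probe sets, a set that leaves out Irs2. With all probe sets fitted, the difference was 1.84 (SE 0.41, limma adjusted p = 0.116), in a fit that called 0.0789% of all probe sets. Knockout livers were at 2.52, 2.38 and 3.22 with HGF, against 2.42, 3.28 and 2.32 without HGF. The highest array of each knockout group was again the one with an index above 0.9. The interaction for Irs2 was -1.81 (SE 0.59, limma adjusted p = 0.468).

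Igfbp1 (Entrez Gene 16006), whose product is secreted by hepatocytes and binds insulin-like growth factors, had log2 values of 13.67, 13.80 and 13.63 in controls with HGF. In controls without HGF it was at 10.72, 10.65 and 9.12. The treated arrays lay close together, at 13.70 ± 0.09, and far above the untreated ones, at 10.16 ± 0.90 (SD, n = 3 each). The difference was 3.54 (SE 0.95, 95% interval 1.42 to 5.66, limma adjusted p = 0.105), an 11.6-fold higher mean. Limma called it with the 2 control groups alone (adjusted p = 0.00328, 12% of all tested probe sets called). With array weights limma called it at 3.58 (adjusted p = 0.00346, 20.2% called). Limma also called it without knockout replicate 2 without HGF (adjusted p = 0.0263, 4.74%) and without both replicate 2 knockout arrays (adjusted p = 0.00480, 8.16%). The difference was 3.54 in these fits without weights. No other setting called Igfbp1, among them the log2(intensity + 16) scale and each fit with 1 control array left out.

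In Met knockout livers, Igfbp1 was at 11.92, 10.28 and 13.40 with HGF, against 10.19, 13.65 and 10.46 without HGF. Replicate 2 without HGF, at 13.65, thus lay within the range of treated controls (13.63 to 13.80), and replicate 3 with HGF, at 13.40, just below it. The HGF effect in knockouts was 0.43 (SE 0.95, limma adjusted p = 1.00 when rounded). Without both replicate 2 arrays it was 2.33 (limma adjusted p = 0.0616), a comparison of 2 arrays with 2 from which the arrays opposed to the contrast had been removed.

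Between genotypes, Igfbp1 averaged 11.87 in knockouts against 13.70 in controls with HGF, a difference of -1.84 (SE 0.95, limma adjusted p = 0.564), and -1.05 without both replicate 2 arrays. The groups with HGF did not overlap, as held in either direction for 14.9% of all tested probe sets. Without HGF it averaged 11.43 in knockouts against 10.16 in controls, a difference of 1.27 (SE 0.95, limma adjusted p = 0.691), which came to 0.16 without those arrays. The interaction was -3.11 (SE 1.35, limma adjusted p = 0.453), and -1.21 without them (limma adjusted p = 0.531).

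Array by array, Igfbp1 and G6pc stood differently beside the response index. The 5 arrays with an index above 0.8 had Igfbp1 values of 13.40 to 13.80. They were the controls with HGF, whose mean defines 1 on the index, and 2 knockout arrays. Those knockout arrays were replicate 3 with HGF, at 13.40, and replicate 2 without HGF, at 13.65. Knockout replicate 1 with HGF, at an index of 0.32, lay between at 11.92. The other 6 arrays were at 9.12 to 10.72. For G6pc, 4 of the 5 arrays with an index above 0.8 had the lowest values of all 12, at 7.04 in knockout replicate 2 without HGF and at 5.44, 6.37 and 8.45 in controls with HGF. At an index of 0.94, however, knockout replicate 3 with HGF had a G6pc value of 8.85, within the range of knockout arrays of low index. Those with an index under 0.1 were at 8.71 (replicate 2 with HGF) and 8.49 (replicate 3 without HGF). Knockout replicate 1 was at 9.16 without HGF (index 0.12) and at 9.63 with HGF (index 0.32), while controls near 0 were at 10.06 to 10.73. The 2 genes share arrays and the index, so these positions are a description.

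**Figure D3:**
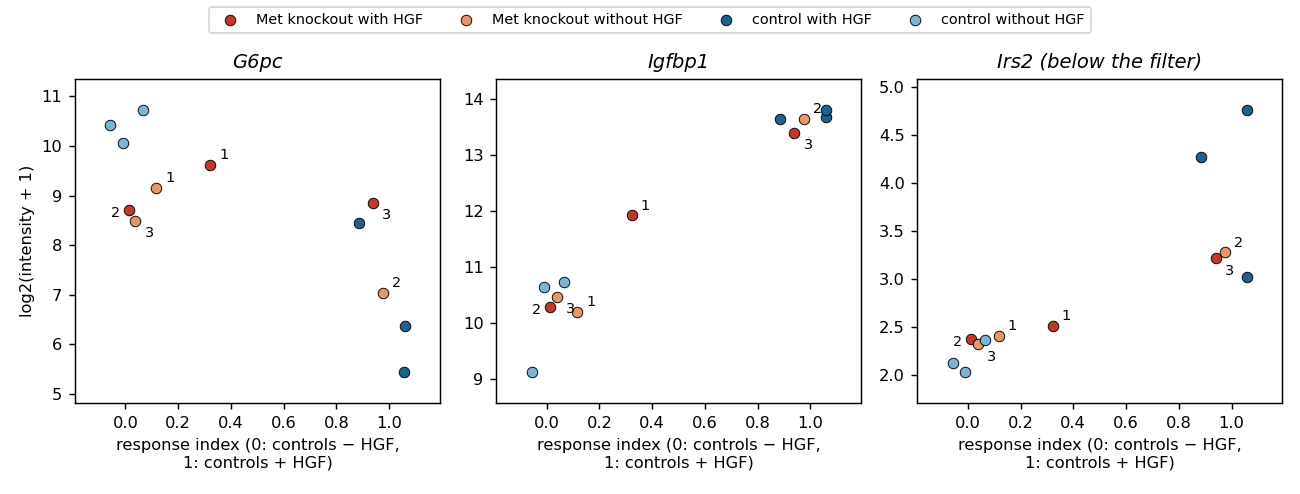
Log2(intensity + 1) of G6pc, Igfbp1 and Irs2 on each array against the response index over 6678 other probe sets. Numbers beside the knockout points are replicates. Igfbp1 is at 13.40 to 13.80 on all 5 arrays with an index above 0.8, while G6pc lies between 8.49 and 9.63 on 5 of 6 knockout arrays.

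Some other measures moved with these values and some did not. Neutrophil markers (8 of 10 with a probe set, of which S100a8 and S100a9 were tested) summed to log2 values of 8.17, 5.33 and 10.30 in Met knockout livers with HGF and 6.04, 10.31 and 5.81 in those without. They summed to 10.35, 11.48 and 9.62 in control livers with HGF and 6.73, 6.10 and 5.62 in those without. The arrays with high Igfbp1 were thus those with high neutrophil markers. Sinusoidal endothelial markers (8 of 8 tested) summed to 10.21 to 10.32 in controls with HGF, against 10.64 to 10.67 in controls without HGF. In knockouts they summed to 10.46 to 10.82 with HGF and 10.40 to 10.87 without HGF. Kupffer cell and macrophage markers (10 of 10 tested) summed to 11.49 to 12.43 over all arrays. They overlapped between controls with HGF (11.68 to 12.08) and controls without HGF (11.84 to 12.43). Dbp, whose transcript cycles daily, was at 5.09, 11.05 and 2.81 in Met knockout livers with HGF, and at 10.72, 2.92 and 10.72 in those without. It was at 5.21, 2.61 and 3.55 in control livers with HGF, against 6.22, 5.91 and 7.50 in those without. The part of these measures in the values of G6pc and Igfbp1 was not tested.

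Further genes of glucose output and insulin action came from 6 lists with 125 genes, of which 108 had a probe set and 82 were tested. Limma passed 0 of the 82 in each of the 6 contrasts, where 0% to 0.404% of all tested probe sets passed. At an unadjusted p under 0.05 there were 29 of 82 for the HGF effect in controls (19.6% of all tested probe sets) and 2 for that in knockouts (1.9%). There were 13 for the knockout effect without HGF (10.8%), 10 for that with HGF (9.58%), 9 for the averaged effect (9.38%) and 19 for the interaction (10.8%). The lists were chosen with earlier results of these data known. A count above the share of all probe sets, here or below, is therefore no test of the pathway. With the 2 control groups alone, 15 of 82 rose and 8 fell with HGF, in the limma fit that called 12% of all tested probe sets. All verbs of change in the next paragraphs refer to that fit.

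Gluconeogenic and glucose handling enzymes (14 of 28 tested) had a median difference with HGF in controls of 0.09, against -0.09 over all tested probe sets. In the fit of the 2 control groups, 2 rose and 0 fell. Slc37a4, the transporter that brings glucose-6-phosphate to the phosphatase, rose by 0.59 (limma adjusted p = 0.0233), and all its HGF arrays (9.72 to 10.09) lay above the untreated ones (9.31 to 9.36). Its direction was opposite to that of G6pc, with which it works. Pfkfb3, an enzyme that raises fructose-2,6-bisphosphate and so favours glycolysis, rose by 4.48 (limma adjusted p = 0.000145, and 0.125 over all 12 arrays). In knockouts Pfkfb3 was at 3.52, 3.18 and 7.69 with HGF, against 3.67, 8.14 and 3.31 without HGF, high on the same arrays as Igfbp1. Pcx, the pyruvate carboxylase gene, differed by 0.38 (SE 0.17) and the aminotransferase gene Gpt by -0.39 (SE 0.16), both with 12 arrays fitted and neither called there.

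Glycogen genes (11 of 12 tested, median -0.15) held 1 that rose and 1 that fell with HGF in controls. Ppp1r3c, which targets protein phosphatase 1 to glycogen, fell by 4.75 (limma adjusted p = 0.000307, and 0.0785 over all 12 arrays), to 4.53, 3.99 and 4.98 with HGF, against 8.95, 9.06 and 9.73 without HGF. In knockouts it was at 8.61, 8.89 and 5.62 with HGF, against 8.08, 4.72 and 8.50 without HGF. The knockout arrays with an index above 0.9, at 5.62 and 4.72, were the lowest of their groups. Pgm2, a phosphopentomutase and phosphoglucomutase gene, rose by 1.31 (limma adjusted p = 0.0105, and 0.128 over all 12 arrays).

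Transcriptional controllers of glucose output (18 of 25 tested, median 0.02) moved in both directions, with 6 that rose and 4 that fell. Cebpb, a factor that drives gluconeogenic and acute phase genes, rose by 2.46 (limma adjusted p = 0.000439), and Socs3, a cytokine feedback inhibitor that also binds the insulin receptor and IRS proteins, by 4.04 (limma adjusted p = 8.3e-05). Sirt1, a deacetylase that acts on FOXO1 and PGC-1alpha, rose by 0.85 (limma adjusted p = 0.0461). Nr0b2, which encodes the repressor SHP, fell by 4.20 (limma adjusted p = 0.00202). Over all 12 arrays, Cebpb, Socs3, Sirt1 and Nr0b2 had limma adjusted p of 0.0801, 0.0801, 0.0801 and 0.103. Foxa2, Onecut1 and Klf15 also fell in the fit of the 2 control groups (-2.41, -2.07 and -1.06). Stat3, Crem and Klf9 also rose there (1.14, 0.64 and 0.57). Nr4a1, an orphan receptor gene induced by glucagon, stayed below the filter, at 3.38 to 3.95 in controls with HGF against 3.09 to 3.27 in controls without HGF.

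Insulin signal transduction genes (20 of 36 tested, median -0.03) held 1 that rose and 0 that fell with HGF in controls. That gene was Ptpn1, whose phosphatase acts on the insulin receptor, at 7.87, 7.75 and 7.20 with HGF against 6.20, 6.22 and 5.96 without HGF, a rise of 1.48 (limma adjusted p = 0.00462). Pik3r1, the regulatory subunit of PI3-kinase, differed by -0.24 (limma adjusted p = 0.188 in that fit). Akt2, the main AKT form of hepatocyte insulin action, differed by 0.25 with 12 arrays fitted (SE 0.09, limma adjusted p = 0.183).

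Genes known as FOXO targets (13 of 15 tested) had a median of -0.12, with 5 that rose and 3 that fell. The stress gene Gadd45a rose by 1.81 (limma adjusted p = 0.0265) and Angptl4, an inhibitor of lipoprotein lipase, by 1.76 (limma adjusted p = 0.00170). Pdk4, which spares pyruvate for gluconeogenesis, was at 4.87, 6.04 and 5.47 with HGF, against 7.34, 7.39 and 5.95 without HGF, a difference of -1.43 that did not pass (limma adjusted p = 0.0946). Genes of this list thus lay on both sides of 0, as G6pc and Igfbp1 did. IGF and its binding proteins other than Igfbp1 (6 of 9 tested, median 0.22) held 0 that passed, with 1 higher and 1 lower at an unadjusted p under 0.05 in that limma fit. Igfals, which stabilises circulating IGF complexes, differed by -0.59 (limma adjusted p = 0.0667), and Igfbp2 by 0.31 with 12 arrays fitted (SE 0.12). The rise of 11.6-fold in Igfbp1 had no counterpart of that size among these 6.

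**Figure D4:**
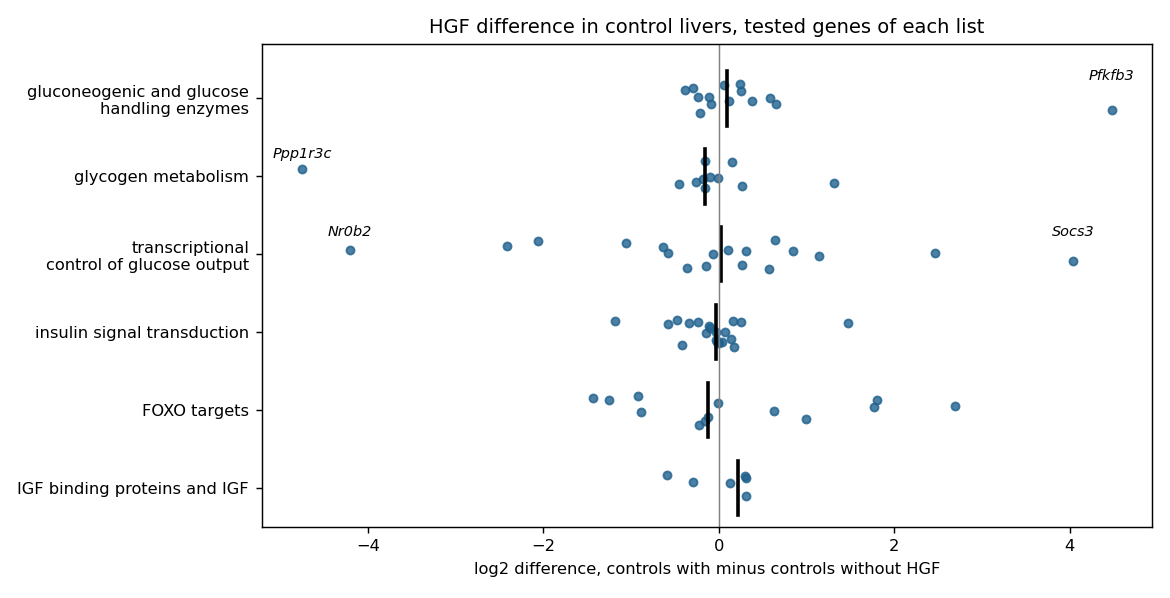
Log2 differences between controls with and without HGF for the tested genes of 6 lists. Points are genes, black bars the median of each list, and genes beyond 4 in either direction are named. Medians lie between -0.15 and 0.22, while Ppp1r3c and Nr0b2 reach -4.75 and -4.20 and Pfkfb3 and Socs3 4.48 and 4.04.

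In knockout livers, the lists had no gene past the threshold for the HGF effect in the fit of 12 arrays or of the 2 knockout groups alone. Without both replicate 2 arrays, which were set aside for an index that these list genes enter, limma called 7 higher and 6 lower of the 82, in a fit that called 4.16% of all tested probe sets. Socs3 (2.72, limma adjusted p = 0.000540), Cebpb (limma adjusted p = 0.0381) and Angptl4 (1.12, adjusted p = 0.0236) were among the higher ones. These calls describe the 4 arrays kept and give no independent evidence of an HGF effect in knockouts. None of the 5 tested members was, though Igfbp1 had an adjusted p = 0.0616 in that limma fit.

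Genes of like pattern were sought by the root mean square difference of log2 values over the 12 arrays, each gene centred on its own mean. For Igfbp1 the nearest of the tested genes were Hmox1, the heme oxygenase gene (0.36), Sowahc (0.40) and Rhob, a small GTPase gene induced by growth factors and stress (0.41), against a spread of 1.66 for Igfbp1 around its own mean. Hmox1 had values of 8.43, 6.35 and 9.84 in Met knockout livers given HGF, against 5.71, 10.01 and 6.51 in unstimulated ones. In controls these were 9.53 to 10.57 with HGF, against 5.19 to 6.76 without HGF. Its high arrays were those on which Igfbp1 was high, including knockout replicate 2 without HGF, which follows from its choice by likeness to Igfbp1.

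G6pc had no such close match. Its nearest genes were D630039A03Rik (0.80), Aacs, which activates acetoacetate for lipid synthesis (0.93), and Nr0b2 (0.97), against a spread of 1.55 for G6pc. Nr0b2 was at 8.51, 7.80 and 4.67 in knockouts with HGF, against 7.14, 3.71 and 7.57 without HGF, and so was low on both knockout arrays with an index above 0.9, while G6pc was low on only one of them. For Irs2 the nearest were the transcription factor gene Klf6 (0.33), Pvr (0.34) and the repressor gene Tgif1 (0.35), against a spread of 0.83.

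**Figure D5:**
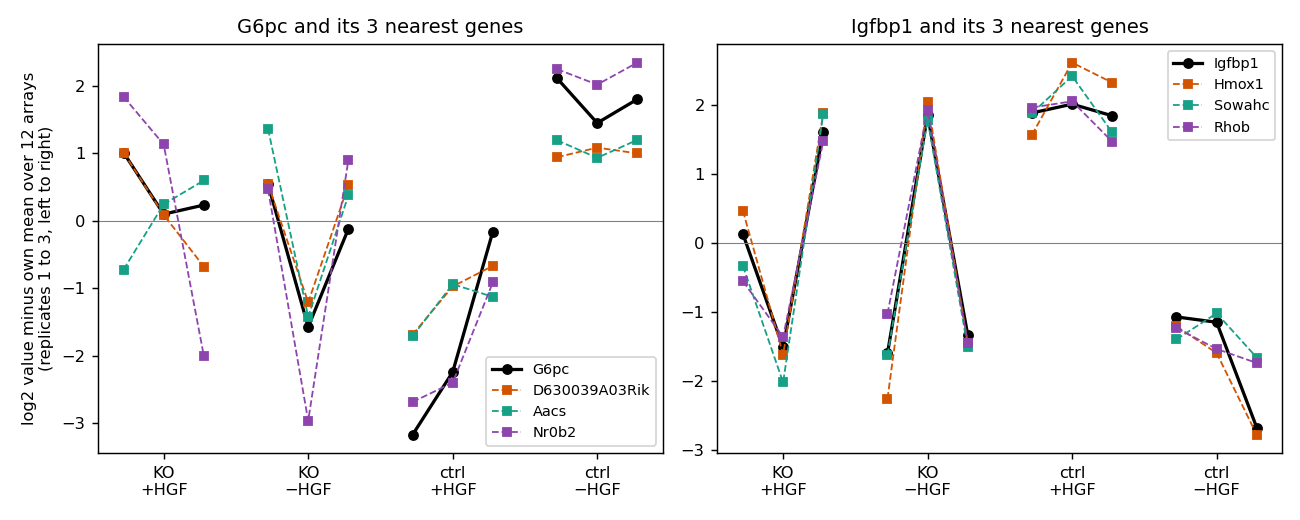
Centred log2 values of G6pc and Igfbp1 (black) and their 3 nearest genes (dashed) on the 12 arrays, in 4 groups with replicates 1 to 3 from left to right. The neighbours of Igfbp1 have root mean square differences of 0.36 to 0.41 from it over the 12 arrays. Single arrays lie farther apart, such as control replicate 3 without HGF. The neighbours of G6pc, at 0.80 to 0.97, lie farther from it.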

How the data were processed

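Total RNA from cryopreserved liver was labelled with biotin in a one-cycle amplification, per the labels' protocols. The authors deposited probe set intensity values made with GCRMA, whose version is not given here, per the submitters' processing notes. The values are linear, judged from their range. GCRMA equalises the arrays and sets values near background, so shared shifts are hidden and small signals uncertain.

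Of 16539 rows, 64 were array controls. The platform annotation named 15780 probe sets, 1 per gene, and left 695 unnamed. Here log2(intensity + 1) was fitted with limma 3.58.1 in R 4.3.3, a mean per group, 8 residual degrees of freedom, and two-sided p adjusted by Benjamini-Hochberg. Fold changes on this scale understate those of dim genes. The number of arrays limits the precision; the median standard error between 2 groups was 0.18. The fit was checked on simulated data that gave all groups the same spread, so that check does not cover the uneven knockout arrays. The labels' protocols give separate animals in each group, treated in parallel.

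The 9 genes and all lists were chosen with earlier results of these data known. Named genes were the members, Met, Dbp, 5 fixed genes (1 not reported here), called list genes, the 4 of each list with the smallest p for HGF in controls, and 3 nearest genes. Alternatives changed the scale, filter, normalization, weights, block and arrays.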

Additional observations from a re-analysis of the deposited data

How the results depend on the processing

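No member passed over all 12 arrays, so these settings can only add calls. For the HGF effect in controls, limma called 1 member on the log2(intensity + 16) scale, 2 with array weights, 2 with the 2 control groups alone, 2 without both replicate 2 knockout arrays, and 0 to 2 with 1 array left out. For the interaction it called 1 with array weights, whose estimation stopped before full convergence. No other setting called a member in any contrast. Of 590 alternative values of the 5 tested members, 552 kept direction and side of the threshold, 11 passed it and 27 changed sign, all of the last from differences that were not called. Pck1 for the knockout effect with HGF was 0.13 with array weights. Foxo1 for the HGF effect in knockouts was -0.079 with array weights and -0.21 without both replicate 2 knockout arrays, and for the knockout effect with HGF -0.062 without them. With 1 array left out, the averaged knockout effect ranged from -0.26 to 0.49 for G6pc, -0.022 to 0.074 for Fbp1 and -0.84 to 0.11 for Igfbp1. The HGF effect in knockouts ranged from -0.12 to 0.053 for Fbp1, -0.33 to 1.54 for Igfbp1 and -0.12 to 0.26 for Foxo1, and the knockout effect with HGF from -0.11 to 0.047 for Fbp1 and -0.062 to 0.18 for Foxo1. The cause was not tested. Arrays with the same replicate number did not deviate together: r ran from -0.83 to 0.29 over 18 pairs, and the best match had the same number in 11 of 36 cases. Over all tested probe sets, limma called 27 for HGF in controls, against 1353 with array weights, 801 with the control groups alone, 545 without both replicate 2 knockout arrays, 41 on the log2(intensity + 16) scale, 13 with no filter and 0 to 317 with 1 array left out. With array weights and without both replicate 2 knockout arrays it called 0 and 278 for HGF in knockouts (0 over all 12 arrays), 637 and 180 for unstimulated knockouts against controls (4), 290 and 2 for HGF-treated ones (1), 570 and 57 for the average of both (1) and 268 and 24 for the interaction (0). Of the 82 list genes, array weights called 18 higher and 8 lower for HGF in controls, and the fit without those knockout arrays 13 higher and 6 lower, against 0 over all 12 arrays. With the replicate block, 0 members were called in all 6 contrasts, as without it, and 0 probe sets in all for HGF in controls; G6pc for HGF in controls had a limma adjusted p = 0.288. Fits that leave a group with 1 or 2 arrays assume the spread of the other groups. Signal limits Ppargc1a, Insr and Irs2, which lie near background.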
